A study of Mus musculus with 16 samples.

Results

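UHRF1 carrying a mutation in its ubiquitin-like (UBL) domain, F46A, was compared with UHRF1 carrying a mutation in its RING domain, H730A, for the CpG methylation each line of mouse embryonic stem cells held at LINE1 elements. The comparison used 8 of the 16 libraries of the series, 4 for each mutant, taken by their titles. Of 49722 CpG sites listed in any library of the series, 46175 were listed in at least 1 of these 8. The 10475 sites with at least 10 calls in every one of the 8 libraries were tested, and such sites were joined into 774 stretches, called copies below, wherever neighbours on the same strand lay no more than 200 bp apart.

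UHRF1 binds hemimethylated CpG behind the replication fork and recognises modified histone H3 tails, and its RING domain acts as an E3 ubiquitin ligase on histone H3. The ubiquitin marks on H3 are bound by the maintenance methyltransferase DNMT1, which then methylates the new strand. The UBL domain lies at the other end of the protein from the RING domain, and the series concerns its part in stimulating that ligase activity. LINE1 retrotransposons are spread through the genome in great number and are normally kept silent, in part by DNA methylation, and 1 pair of bisulfite primers reads the same stretch of CpGs in many of them.

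All cells were J1 embryonic stem cells (strain 129S4/SvJae), kept in medium with serum, LIF and the inhibitors PD032591 and CHIR99021 (2i). F46A replaces the residue 46 of UHRF1 and H730A the residue 730. J1 wild-type cells (wtJ1) and a Uhrf1 knockout (Uhrf1 KO), with 4 libraries each, served as background. The series calls its libraries biological quadruplicates. The sources used here do not say if each library had its own clone or culture, so p-values measure the spread between these samples. The amplicon does not hold Uhrf1, and the genotypes were taken from the titles without a check in the reads.

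A methylation level is the percentage of calls at a CpG read as C among calls read as C or T after bisulfite conversion. The 8 mutant libraries held 998982 to 1239606 calls each, of which 89.9 to 91.4% fell on the tested sites, with a median of 56 to 68 calls per site and library. The reads come from PCR and carry no molecular identifiers, so intervals on counts would cover counting error alone, and conversion was not measured. LINE1 copies are nearly alike in sequence, and the sources used here do not say how reads that fit several of them were placed. Which copy or gene a value belongs to is therefore uncertain.

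F46A replicate 2 stood apart from the other F46A libraries in which CpGs it kept methylated. Along the amplicon, where positions are counted in bp from the most upstream CpG on the strand of the calls, the level at position 113 divided by that at position 90 was 0.593, 1.34, 0.502 and 0.720 in F46A replicates 1 to 4. The same ratio was 1.63, 1.59, 1.34 and 1.64 in H730A replicates 1 to 4, 0.260 to 0.267 in Uhrf1 KO and 1.05 to 1.07 in wtJ1. F46A replicate 2 thus had the ratio of H730A replicate 3, while its total level lay among those of its own genotype. The differences at single positions, summed over copies, are therefore also given without it. It was singled out by its levels at positions 113 and 90, so larger differences there without it follow from that choice and are no check. H730A replicate 3 had the lowest ratio of its own mutant. Without H730A replicate 3, F46A minus H730A was -6.30 points at position 113 and 1.37 points at position 90.

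LINE1 methylation was low in both mutants and, in most libraries, lower in F46A. Over the 10475 sites the level was 5.62, 5.16, 4.27 and 6.53% in F46A replicates 1 to 4 and 7.20, 7.48, 8.61 and 6.51% in H730A replicates 1 to 4. The groups met at 1 point: F46A replicate 4 lay just above H730A replicate 4, and the other 3 F46A libraries lay below every H730A library. The means were 5.39 ± 0.942% for F46A and 7.45 ± 0.871% for H730A (SD, n = 4), so that F46A held 72.4% of the level of H730A. F46A minus H730A was -2.06 percentage points (95% interval -4.34 to 0.0176) and did not pass an exact two-sided permutation test (p = 0.0571, n = 4 per mutant, where the smallest possible p is 0.0286). Without F46A replicate 4 the same exact test gave -2.43 points with p = 0.0286 (n = 3 and 4), and without F46A replicate 2 it gave -1.98 points with p = 0.0857.

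Against the background lines, both mutants lay far below wild type. The wtJ1 libraries held 24.4 to 25.2% and the Uhrf1 KO libraries 4.89 to 5.04%. F46A reached 21.8% and H730A 30.1% of the wtJ1 level. The SD between knockout libraries was 0.0698 points, whereas F46A libraries spread from 4.27 to 6.53%, on both sides of the knockout. Among the F46A libraries only replicate 3 lay below all knockout libraries.

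**Figure D1:**
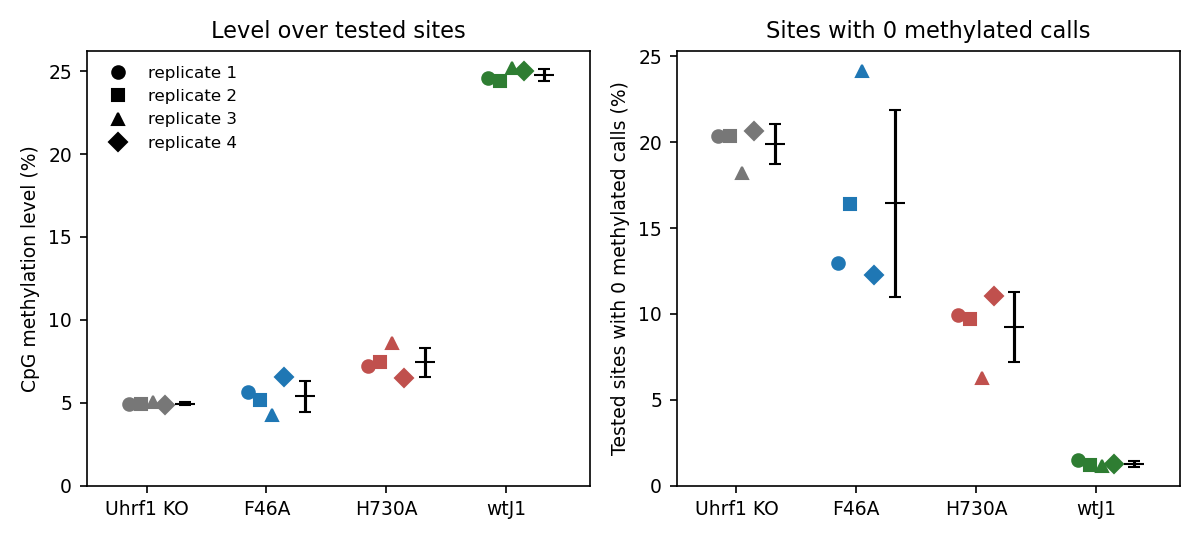
Methylation level of each library, in percent of calls at the 10475 tested LINE1 CpG sites, with the mean and SD (n = 4) of each genotype. F46A libraries sit between 4.27 and 6.53% and H730A libraries between 6.51 and 8.61%, while wild type lies between 24.4 and 25.2% and the knockout between 4.89 and 5.04%.

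Measures that weight sites equally separated the mutants. The mean of site levels was 5.45 ± 0.950% in F46A and 7.78 ± 0.885% in H730A, with every F46A library below every H730A library (difference -2.33 points, 95% interval -4.66 to -0.233, exact two-sided permutation test p = 0.0286, n = 4). Sites without a single methylated call made up 12.9, 16.4, 24.2 and 12.2% of the tested sites in F46A replicates 1 to 4. In H730A they made up 9.94, 9.70, 6.29 and 11.1%, again without overlap (difference 7.19 points, exact two-sided permutation test p = 0.0286, n = 4). The knockout had 18.2 to 20.7% such sites and wtJ1 1.12 to 1.52%. This share depends on coverage, which was not equalised. F46A replicate 3 had the lowest median of the mutant libraries, 56 calls per site. F46A replicates 1, 2 and 4 had 68, 59 and 65, the H730A libraries 57 to 64 and the knockout libraries 67 to 71.

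Site by site, most levels were lower in F46A and the called sites lay almost wholly on that side. Of the 10475 sites, 7810 had a lower summed level in F46A, 2609 a higher one and 56 the same. The median site stood at 4.88% in F46A and 7.03% in H730A, and the median difference was -1.88 points, with quartiles of -4.17 and 0. A quasi-binomial model moderated with limma, with Benjamini-Hochberg adjustment over all sites at 0.05, found 216 sites lower in F46A (2.06% of the sites tested) and 1 higher (0.00955%). At an unadjusted p under 0.05 the model gave 1951 lower (18.6%) and 70 higher (0.668%). Without overlap between the libraries there were 1299 lower (12.4%) and 51 higher (0.487%) sites.

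The 216 sites that fell spread over 126 copies and all lay without overlap between the mutants. Their median level was 11.7% in H730A and 3.18% in F46A, and their median difference was -6.97 points, from -1.70 to -32.2. They were deeply covered, with a median of 277 calls per library against 62 over all tested sites. The count depended on every library: it was 118 without F46A replicate 2, 6 without H730A replicate 4 and 0 without any one of F46A replicates 1, 3 and 4 and H730A replicates 1, 2 and 3.

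The sites that fell lay at few places of the amplicon. Copies share the spacing of their CpGs, which gave a template of 15 positions, and 213 of the 216 sites were on it. Position 8 held 84 of them (11.1% of the tested sites at that position), position 113 held 77 (9.23%) and position 34 held 20 (2.89%), together 83.8% of the called sites. Every other position held 7 or fewer. At an unadjusted p under 0.05, 413 sites at position 8 (54.6%), 423 at position 113 (50.7%) and 229 at position 34 (33.04%) were lower in F46A. At position 90 the same model counted 17 lower and 22 higher, at position 110 15 lower and 20 higher, and at position 53 20 lower and 8 higher.

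Summed over all copies, the largest difference stood at position 113. Its level was 6.46, 9.04, 4.56 and 8.65% in F46A replicates 1 to 4 and 13.8, 14.1, 14.8 and 12.5% in H730A replicates 1 to 4. The highest F46A library stayed well below the lowest H730A library. The difference was -6.62 points (95% interval -10.2 to -3.49), and -7.24 points without F46A replicate 2. Uhrf1 KO stood at 3.07% there.

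At position 8 the level was 2.45, 3.70, 1.53 and 3.02% in F46A replicates 1 to 4 and 7.66, 7.80, 7.75 and 6.83% in H730A replicates 1 to 4. F46A thus kept 35.6% of the level of H730A, the smallest share of the positions that were methylated above 1% in both mutants. The difference was -4.83 points (95% interval -6.27 to -3.13), and -5.17 points without F46A replicate 2. The knockout held 1.10% at position 8.

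Position 34 gave 2.74, 4.04, 1.65 and 3.53% in F46A replicates 1 to 4 and 6.11, 6.21, 6.22 and 5.31% in H730A replicates 1 to 4. The groups did not overlap there either, with a difference of -2.97 points (95% interval -4.57 to -1.27), or -3.32 points without F46A replicate 2. The knockout held 0.937%.

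At 4 further positions all F46A libraries lay below all H730A libraries. F46A and H730A stood at 3.32 ± 0.712 and 5.46 ± 0.692% at position 18, at 4.30 ± 0.798 and 6.27 ± 0.761% at position 29, at 2.80 ± 0.670 and 4.99 ± 0.924% at position 86, and at 2.64 ± 0.348 and 4.61 ± 1.12% at position 150 (SD, n = 4). Without F46A replicate 2 the differences there were -2.21, -2.01, -2.21 and -1.90 points, beside -2.14, -1.97, -2.19 and -1.97 points with it. In all, 7 of the 15 positions (46.7%) were lower in F46A without overlap and none was higher. Each of the 7 had p = 0.0286 in the exact two-sided permutation test (n = 4), which is the smallest it can give and became 0.0612 after Benjamini-Hochberg adjustment over the 15 positions.

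Other positions of the same amplicon showed no separation. Position 90 gave 10.9, 6.73, 9.09 and 12.0% in F46A replicates 1 to 4 and 8.46, 8.85, 11.0 and 7.64% in H730A replicates 1 to 4. The libraries were interleaved, and F46A minus H730A was 0.700 points (95% interval -4.25 to 4.38, exact two-sided permutation test p = 0.629, n = 4). Leaving out F46A replicate 2 gave 1.69 points, and leaving out F46A replicate 4 gave -0.0803. In Uhrf1 KO position 90 was the most methylated of the template, at 11.6%.

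Position 110, 3 bp upstream of position 113, gave 6.94, 4.44, 6.48 and 7.85% in F46A replicates 1 to 4 and 5.64, 5.89, 8.39 and 5.08% in H730A replicates 1 to 4. Its difference was 0.178 points (exact two-sided permutation test p = 0.886, n = 4). Position 53 differed by -0.260 points (7.62 ± 1.39% against 7.88 ± 0.371%, exact permutation p = 0.857, n = 4) and position 49 by -1.26 points (7.89 ± 1.74% against 9.16 ± 1.36%, exact permutation p = 0.343, n = 4). A p that misses the threshold does not show equal levels, and the sign at positions 53, 90 and 110 changed when single libraries were left out. Position 49 gave -0.594 points without F46A replicate 2, -0.637 without H730A replicate 3 and -1.88 without F46A replicate 4, and positions 53 and 110 gave -0.457 and 0.840 points without F46A replicate 2. At positions 65 and 103 the differences were -2.64 and -2.15 points, each with 3 of 4 F46A libraries below all of H730A (exact two-sided permutation test p = 0.0571, n = 4), and -2.40 and -2.31 points without F46A replicate 2. Position 25 differed by -0.695 points (exact two-sided permutation test p = 0.0857, n = 4), or by -0.578 without F46A replicate 2, and position 1 was nearly unmethylated, at 0.249% in F46A and 0.171% in H730A.

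**Figure D2:**
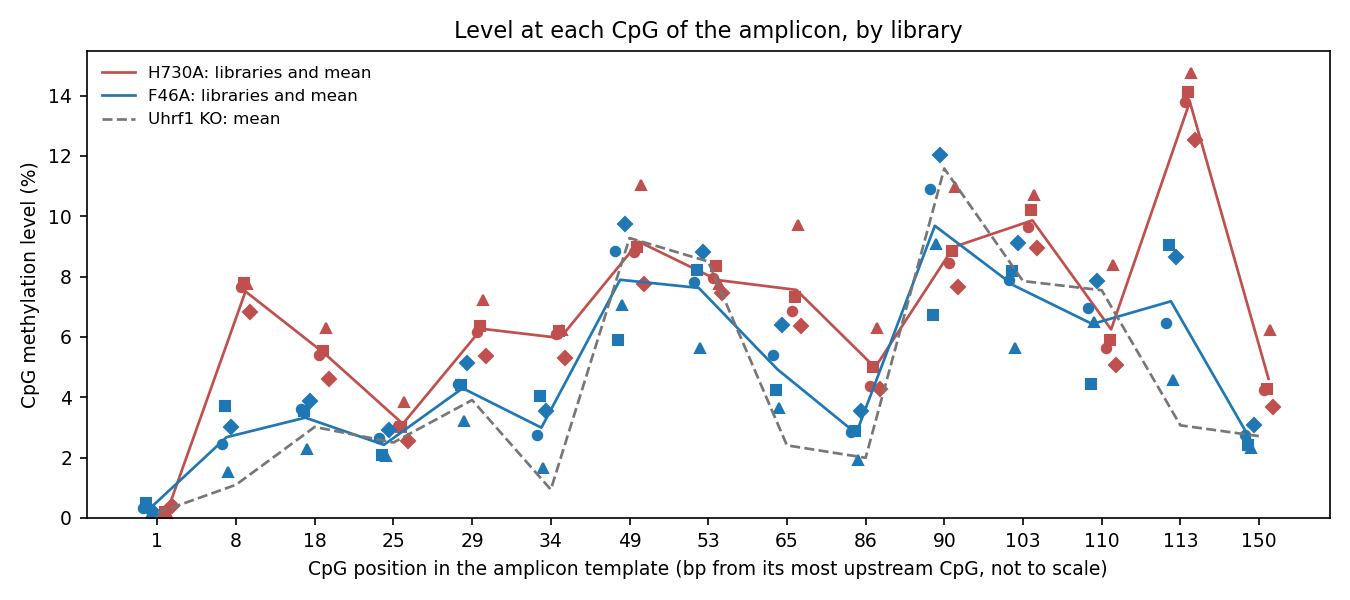
Methylation level in percent at each CpG position of the LINE1 amplicon, in bp from its most upstream CpG, with 1 point per F46A and H730A library and the mean of Uhrf1 KO for reference. F46A and H730A separate fully at positions 8, 18, 29, 34, 86, 113 and 150, whereas at positions 53, 90 and 110 the libraries are interleaved.

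The CpGs at positions 110 and 113, 3 bp apart, were also compared with each other within each library. From position 110 to 113 the level changed by -0.480, 4.60, -1.92 and 0.808 points in F46A replicates 1 to 4 and by 8.16, 8.22, 6.36 and 7.46 points in H730A replicates 1 to 4. Every H730A library rose more over these 3 bp than any F46A library. The mean step was 8.34 points in wtJ1 and -4.48 points in Uhrf1 KO. The steps of the mutants differed by -6.80 points (exact two-sided permutation test p = 0.0286, n = 4, adjusted p = 0.0571 over 14 steps between neighbours), and by -8.08 points without F46A replicate 2. Leaving out any 1 H730A library gave p = 0.0571 in the same exact test (n = 4 and 3). Of the 14 steps, 7 (50.0%) did not overlap between the mutants.

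The separate copies gave the same picture as their sum. The level at position 8 was lower in F46A in 677 of 695 copies (97.4%) and that at position 113 in 715 of 738 (96.9%). Position 34 was lower in 91.3% of its copies. At position 90 the level was lower in F46A in 309 of 751 copies (41.1%), at position 110 in 47.1% and at position 53 in 53.9%. Copies are not replicates of a mutant, and these shares describe the 8 libraries.

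Dividing each position's level by the library's level over all positions removes the difference in overall level. On this relative scale position 8 stood at 0.492 in F46A and 1.01 in H730A, position 18 at 0.611 and 0.731, position 86 at 0.513 and 0.664, and position 150 at 0.491 and 0.612. These 4 positions (26.7%) were lower in F46A without overlap. Position 90 stood at 1.80 in F46A and 1.20 in H730A and position 53 at 1.41 and 1.07, and these 2 (13.3%) were higher in F46A without overlap. Position 113 stood at 1.15, 1.75, 1.07 and 1.32 in F46A replicates 1 to 4 and at 1.91, 1.88, 1.71 and 1.92 in H730A replicates 1 to 4, where F46A replicate 2 overlapped H730A.

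The 6 relative levels without overlap each had p = 0.0286 in the exact two-sided permutation test (n = 4) and an adjusted p of 0.0714 over the 15 positions. Without F46A replicate 2, which was singled out by its own profile, 11 of the 15 positions did not overlap. Without H730A replicate 3 the count was 9. In Uhrf1 KO the relative levels were 0.221 at position 8, 0.618 at position 113 and 2.34 at position 90, and in wtJ1 they were 0.941, 1.28 and 1.21. At each of these 3 positions the mean of F46A lay between those of H730A and the knockout.

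**Figure D3:**
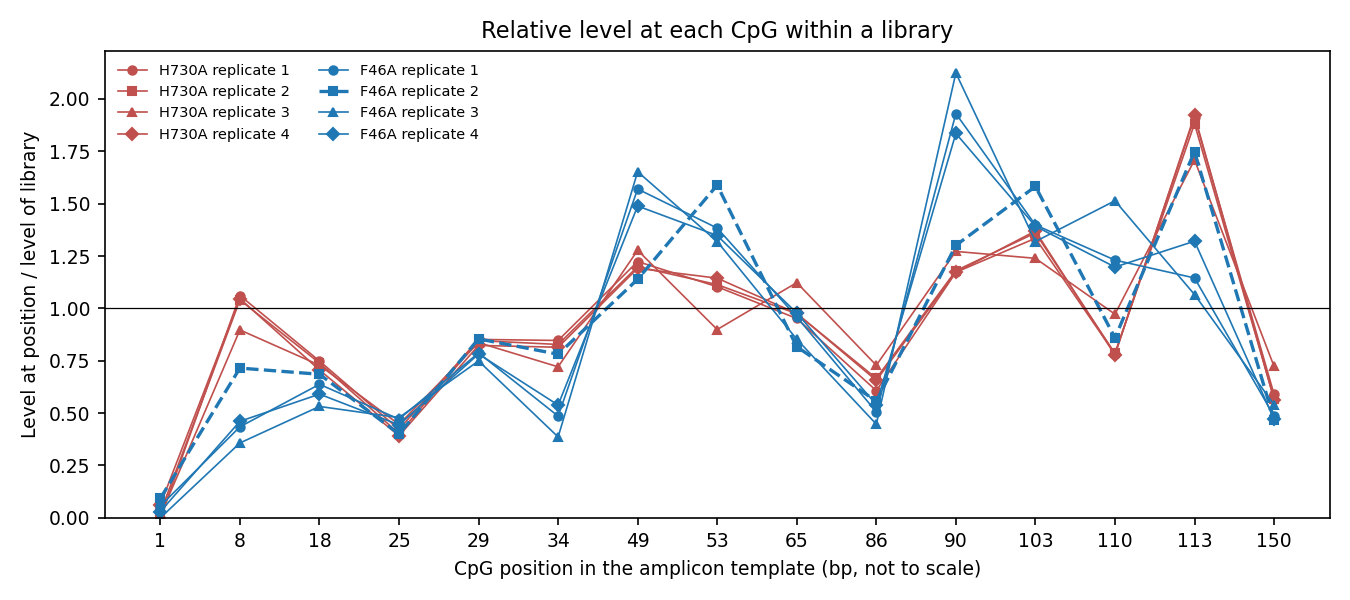
Level at each CpG position divided by the level of the library over all positions, for each F46A and H730A library, with a line at 1. F46A is relatively low at position 8 (0.492 against 1.01) and relatively high at position 90 (1.80 against 1.20), and F46A replicate 2 lies with H730A at position 113.

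Over whole copies, 718 of 774 (92.8%) held less methylation in F46A and 56 held more. The median copy stood at 5.36% in F46A and 7.54% in H730A, and the median difference was -2.13 points, with 10th and 90th percentiles of -4.44 and -0.293. The quasi-binomial model with limma-moderated dispersion called 207 copies lower in F46A (26.7% of the copies tested) and 0 higher (0.0%). At an unadjusted p under 0.05 it gave 338 lower (43.7%) and 3 higher (0.388%), and limma on logit levels also called 0 higher. The count of 207 fell to 95, 97 and 104 without F46A replicates 1, 2 and 3 and to 117 and 114 without H730A replicates 2 and 3.

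Whether a copy passed the test moved with its coverage. Called copies had a median of 9585 calls over the 8 libraries and the others 5530. Among 4 classes by coverage, 98 of 194 copies (50.5%) fell in the most covered and 17 of 194 (8.76%) in the least covered, while the mutants differed by -1.87 points in the first and by -2.81 in the second. Library levels overlapped in the most covered class (exact two-sided permutation test p = 0.0571, n = 4). They did not overlap in the least covered class (p = 0.0286, same exact test). The contrast between these classes, 0.941 points, turned to -0.189 when sites needed at least 30 calls. Of the 56 copies with more methylation in F46A, 34 lay in the lowest of the 4 wild-type classes described below, and the smallest adjusted p among the 56 was 0.0923.

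**Figure D4:**
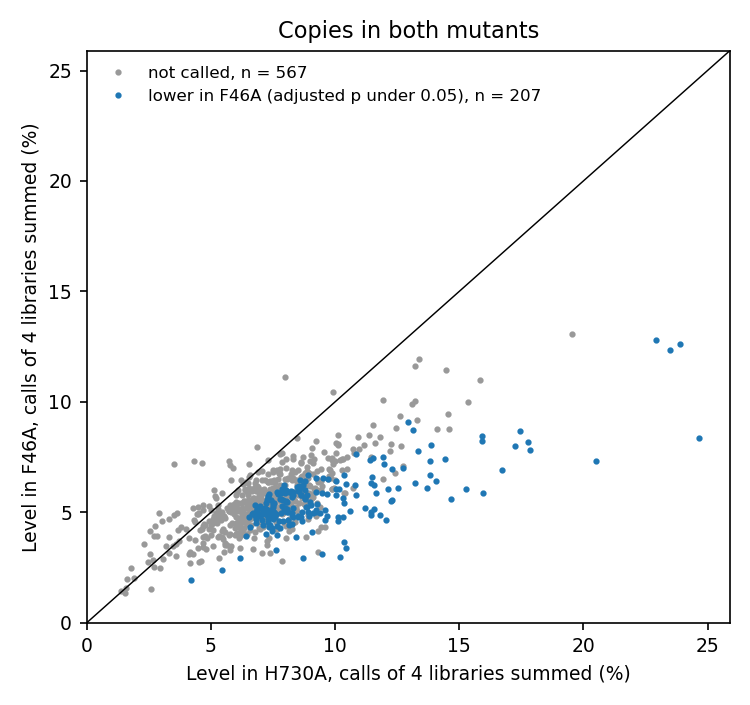
Methylation level of each of the 774 LINE1 copies in H730A (horizontal axis, percent of calls) and F46A (vertical axis, percent of calls), with the called copies marked and the line of equal levels. Levels are from the calls of 4 libraries summed. Points lie below the line for 718 of 774 copies, and the copy farthest from it is at 24.7% in H730A and 8.35% in F46A.

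Copies more methylated in wild type differed more between the mutants. The wtJ1 libraries are not part of the contrast and were used to put the copies in 4 classes of 193 or 194, in which wtJ1 averaged 17.96, 23.8, 26.7 and 32.6%. F46A held 4.53 ± 0.855, 5.17 ± 0.871, 5.73 ± 1.05 and 6.75 ± 1.10%, listed from the least to the most methylated class. H730A held 5.65 ± 0.742, 7.17 ± 0.852, 7.87 ± 0.872 and 10.2 ± 1.10% (SD, n = 4). The knockout held 4.34, 4.74, 5.29 and 5.85% over the same classes.

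The difference between the mutants was -1.11 points in the lowest class (exact two-sided permutation test p = 0.143, n = 4), -2.003 in the second (p = 0.0286), -2.15 in the third (p = 0.0571) and -3.47 in the highest (p = 0.0286). These p-values were not adjusted over the classes. F46A thus held 80.3, 72.1, 72.7 and 66.0% of the level of H730A. Called copies numbered 18 (9.28%), 60 (31.1%), 57 (29.5%) and 72 (37.1%) in the same order of classes, whose median calls over the 8 libraries were 5968, 8053, 6830 and 4703.

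The highest class exceeded the lowest by 2.20, 2.60, 1.68 and 2.38 points in F46A replicates 1 to 4 and by 4.54, 4.87, 4.89 and 3.99 points in H730A replicates 1 to 4. No F46A library reached the H730A range. The gap was 2.21 ± 0.393 points in F46A and 4.57 ± 0.422 points in H730A, a difference of -2.36 points (95% interval -3.22 to -1.39, exact two-sided permutation test p = 0.0286, n = 4), and of -2.49 points without F46A replicate 2. As a ratio of the highest to the lowest class it was 1.49 ± 0.0957 in F46A and 1.81 ± 0.0619 in H730A (exact two-sided permutation test p = 0.0286, n = 4), beside 1.35 in the knockout and 1.82 in wtJ1, whose own classes it defined.

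**Figure D5:**
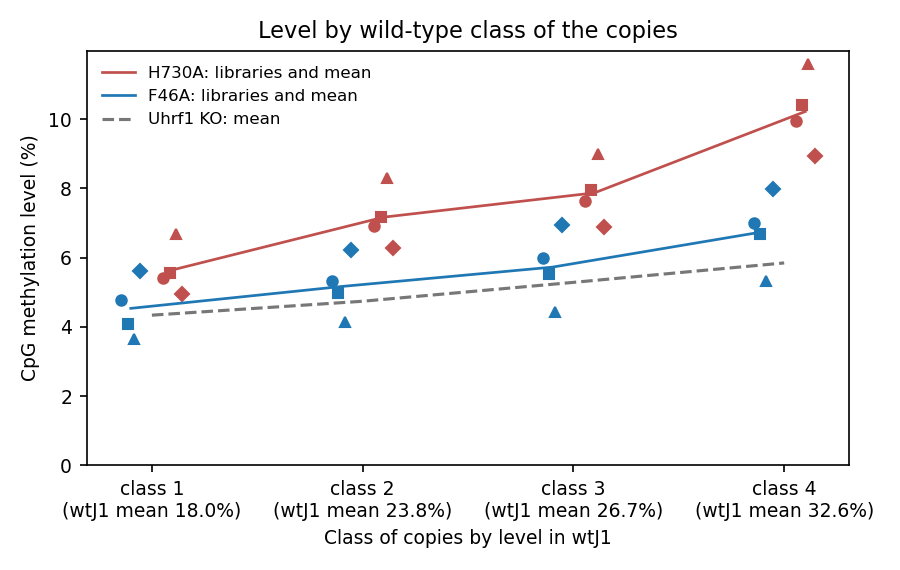
Methylation level in percent in 4 classes of LINE1 copies ordered by their wild-type level. Points are F46A and H730A libraries with the mean of each mutant (n = 4), and Uhrf1 KO is shown by its mean alone. H730A rises from 5.65 to 10.2% over the classes and F46A from 4.53 to 6.75%.

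The position pattern held in each class. The difference at position 113 was -4.49, -6.36, -7.31 and -9.13 points over the wild-type classes in rising order, and that at position 8 was -3.81, -4.92, -4.53 and -6.58 points. At position 90 it was 1.37, 0.575, 0.774 and -0.138 points.

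The copies with the largest differences were strongly methylated in wild type. The largest was on chromosome 1, chr1:150233137-150233279 (mm10, plus strand, 13 sites, outside annotated genes), with 6.96, 11.3, 6.50 and 9.38% in F46A replicates 1 to 4 and 29.3, 20.8, 24.1 and 24.9% in H730A replicates 1 to 4. No overlap between the libraries was a condition for naming this copy and the others given here for their large differences. The difference of summed levels was -16.3 points (quasi-binomial model with limma, adjusted p = 0.000104), with 59.1% in wtJ1 and 8.93% in Uhrf1 KO. The mean of F46A at this copy, 8.54 ± 2.25% (SD, n = 4), lay within 1 SD of the knockout.

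The copy chr3:91126964-91127106 (plus strand) held 5.75, 7.84, 9.06 and 7.21% in F46A replicates 1 to 4 and 19.8, 18.9, 25.7 and 16.7% in H730A replicates 1 to 4. It fell by 13.2 points, with 7.15% in the knockout. On chromosome 17, the copy chr17:39992734-39992876 held 6.02 ± 0.705% in F46A and 16.2 ± 2.33% in H730A (SD, n = 4), a difference of -10.1 points.

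A group of 3 of the 8 copies with the largest differences stood in a row on chromosome 2, on the plus strand, with starts at 23938188, 23939133 and 23940078, each 945 bp from the next. They held 12.9, 12.1 and 12.6% in F46A and 22.8, 23.6 and 23.8% in H730A, with differences of -10.1, -11.1 and -11.2 points. Whether reads from these 3 were told apart was not tested. The other copies among the 8 were chrX:81572527-81572669 (-9.80 points, with an adjusted p of 0.0184 by the model with limma) and chr1:61499203-61499345 (-9.58 points). All 8 lay in the highest wild-type class, with 35.2 to 59.1% in wtJ1, and none lay in an annotated gene. Of all 774 copies, 194 formed that class and 556 lay outside genes. Ranking by difference in points favours copies with high levels.

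The single CpGs with the largest differences lay mostly at position 113 of these and other copies. At chr1:150233242, position 113 of the copy on chromosome 1 above, F46A held 8.20 ± 4.87% and H730A 40.2 ± 7.22% (SD, n = 4) from 47 to 63 calls per library, against 2.92% in the knockout. The summed levels differed by -32.2 points (quasi-binomial model with limma, adjusted p = 0.0282). Position 113 also gave chr2:23938293 (18.3 ± 5.03% in F46A against 41.8 ± 7.13% in H730A), chr3:91127069 (16.6 ± 5.26% against 36.9 ± 8.28%), chr17:39992839 (5.83 ± 2.21% against 25.9 ± 3.90%) and chr12:62549003 (11.5 ± 5.19% against 31.2 ± 5.89%).

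Elsewhere on the amplicon, chr2:23940173 at position 103 held 24.0 ± 5.64% in F46A and 49.2 ± 3.39% in H730A (SD, n = 4), against 15.7% in the knockout. Each of the sites named so far had no overlap between the mutants and at least 30 calls in every library, as the rule for naming sites required.

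The 1 site that rose was chr2:11122086, at position 110, outside annotated genes. It held 11.1 ± 3.11% in F46A and 3.64 ± 0.752% in H730A (SD, n = 4) from 109 to 141 calls per library, with no overlap, and 9.15% in the knockout. The difference was 7.37 points, and the quasi-binomial model with limma gave an adjusted p of 0.0488, close to the threshold.

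The most deeply covered copies showed the position pattern one by one. The deepest, chr16:16507552-16508118 in the span of Fgd4, which encodes an exchange factor for the GTPase Cdc42, held 5.10, 4.72, 3.84 and 6.06% in F46A replicates 1 to 4 and 6.34, 6.93, 7.76 and 5.89% in H730A replicates 1 to 4. F46A replicate 4 overlapped H730A there. The difference was -1.78 points (quasi-binomial model with limma, adjusted p = 0.00584) from 283959 calls. The model draws each copy's dispersion toward a common value, so for deep copies its p can understate the spread between libraries. At position 113 of the Fgd4 copy the level was 5.60, 7.88, 4.09 and 7.98% in F46A replicates 1 to 4 and 11.1, 11.8, 11.6 and 10.0% in H730A replicates 1 to 4, without overlap.

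The second deepest copy, chr2:42083590-42083732 in Lrp1b, a member of the low-density lipoprotein receptor family, held 5.49 ± 1.26% in F46A and 7.26 ± 0.757% in H730A (SD, n = 4), a difference of -1.71 points (adjusted p = 0.0195 in the same model). The other 2 were chr16:84941949-84942727 (5.80 against 7.32%, difference -1.51 points) and chr14:100801299-100801865 (5.13 against 7.21%, difference -2.05 points, no overlap), both outside annotated genes and both called. F46A replicate 4 overlapped H730A in the Lrp1b copy and in chr16:84941949-84942727. In all 4 of these copies positions 8, 34 and 113 were lower in F46A without overlap, by 4.56 to 6.0, 3.06 to 3.81 and 4.74 to 6.89 points. Position 90 overlapped in all 4, with a higher mean in F46A by 0.595 to 1.44 points.

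Some well-covered copies did not differ detectably. The copy chr4:14679386-14679740 in Lrrc69 held 5.60, 4.91, 4.43 and 6.31% in F46A replicates 1 to 4 and 4.64, 5.20, 6.64 and 4.71% in H730A replicates 1 to 4, fully interleaved, with 14.5% in wtJ1 and an adjusted p of 0.979 in the quasi-binomial model with limma. The copy chr16:48497437-48497791 in Morc1, a gene of transposon silencing in the male germ line, differed by -0.558 points (adjusted p = 0.593). The copy chr14:44299107-44299943 in the lncRNA gene Gm32857 was nearly unmethylated in every line, with 1.26% in F46A, 1.52% in H730A and 4.09% in wtJ1.

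Genes were assigned by span alone. Of the 774 copies, 218 lay in a gene and 556 outside. Beside Fgd4 and Lrp1b, the copies in Slc8a1, the sodium-calcium exchanger (-1.95 points, adjusted p = 0.0254), Gm40862 (-2.34 points) and Nckap5 (-2.61 points, adjusted p = 0.0184) were lower in F46A by the same model with limma. In each of these called copies, Fgd4 and Lrp1b included, the libraries of the mutants overlapped. The copies in Cast, which encodes the calpain inhibitor calpastatin (-1.12 points, adjusted p = 0.134), and Shroom4 (-1.08 points, adjusted p = 0.197) did not pass. None of the tested sites lay in a promoter window of 250 bases before to 50 after a RefSeq gene start.

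Very long genes, listed because their introns can hold LINE1 copies, gave 27 copies in 18 of 69 genes. Of these copies 9 fell, 0 rose and 18 did not pass, where 26.7% of all copies fell, and their median difference was -2.29 points beside -2.13 over all copies. Examples that fell were a copy in Lrmda (-5.74 points), a copy in Naaladl2 (-4.55 points), 2 copies in Astn2, a gene of neuronal migration (-5.06 and -3.73 points), and 2 copies in Il1rapl1, which encodes a synaptic adhesion protein (-1.73 and -2.79 points). Among these examples only the copy in Lrmda overlapped between the mutants. A further copy in Astn2 (-1.67 points, adjusted p = 0.435) and in Lrp1b (-1.15 points, adjusted p = 0.341) did not pass the quasi-binomial model with limma.

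Imprinted genes gave 1 copy among 45 genes, in the span of Snrpn and Snhg14, at 4.90% in F46A and 6.85% in H730A (-1.97 points, with an adjusted p of 0.186 by the model with limma). None of 33 genes of the DNA methylation machinery held a tested copy.

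With all 8 libraries, contrasts by the place of a copy did not pass after adjustment. Inside genes the mutants differed by -1.92 points and outside by -2.12, a difference of 0.201 points (exact two-sided permutation test, adjusted p = 0.0952 over 5 such contrasts, n = 4). On the X chromosome they differed by -2.15 points and on the autosomes by -2.04 (adjusted p = 0.179, same exact test). Copies with several amplicon units differed by -1.71 points and those with 1 unit by -2.18 (adjusted p = 0.0714), and the 2 strands differed by 0.00551 points (adjusted p = 0.971). The contrast for amplicon units, 0.464 points, had no overlap between the mutants. Its p before adjustment was 0.0286 in the exact test, the smallest possible, so its adjusted p depended on how many other contrasts reached that value. Leaving out 1 library moved some adjusted p-values below 0.05. By the same exact test the adjusted p was 0.0476 for genes and for amplicon units without F46A replicate 2. Without F46A replicate 4 it was 0.0476 for the X chromosome and for amplicon units. The median copy was lower in F46A on every chromosome with tested copies, from -1.71 to -2.41 points.

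Sites too thinly covered to be tested gave the same order. They held 85754 to 123081 calls per library, with 5.59, 5.13, 4.29 and 6.40% in F46A replicates 1 to 4 and 7.81, 7.79, 8.93 and 7.08% in H730A replicates 1 to 4. No library overlapped, and the difference was -2.55 points (95% interval -4.63 to -0.680, exact two-sided permutation test p = 0.0286, n = 4). The knockout libraries held 4.69 to 4.86% at these sites.

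The same libraries were often the highest or lowest of their genotype. F46A replicate 3 was the lowest F46A library in 493 of the 774 copies and F46A replicate 4 the highest in 478. H730A replicate 3 was the highest H730A library in 437 copies and H730A replicate 4 the lowest in 386. By position, F46A replicate 4 was the highest of its genotype at 11 of 15 and F46A replicate 3 the lowest at 12. F46A replicate 2 was the highest at positions 1, 8, 34 and 113 and the lowest at positions 49, 90 and 110.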

How the data were processed

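Genomic DNA was bisulfite converted and a LINE1 amplicon was made by 40 cycles of PCR, per the labels' protocols. The deposited files, 1 per library, give 2 counts at each CpG (C, and C or T) and their ratio as a fraction, per the file headers. The submitters' processing notes name the build mm10, BSMAP 2.90, Trim Galore 0.3.1 and methylKit without their roles. Counts were used as deposited. Groups and replicate numbers came from the titles.

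Library, position and class levels were compared by exact two-sided permutation tests with 95% intervals from inverting the test. Sites and copies were tested by a quasi-binomial model on the counts, with dispersion moderated by limma 3.58.1 in R 4.3.3, not below 1, and Benjamini-Hochberg adjustment over all sites or all copies. The median dispersion was 1.03 for sites and 3.19 for copies. Moderation draws each dispersion toward a common value, so the p of a deeply covered copy can understate the spread between libraries. Tested on simulated data of 10475 sites, the model recovered 13% of 100 sites changed by 10 points and 52% of 100 changed by 20 points for F46A against H730A, and called 0% of unchanged sites. The simulated counts were binomial and held no spread between libraries of a mutant beyond counting error. The 0% therefore does not give the rate of false calls under the spread of the real libraries. All 12 pairs of libraries within a mutant differed beyond sampling noise in chi-square tests. Template positions needed 30 copies and a unit needed 6 sites. Genes came from RefSeq (assembly GRCm38.p6, on which mm10 is based) by span. Other steps used Python 3.11.15, scipy 1.17.1 and pandas 2.3.3.

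Named sites had an adjusted p under 0.05, at least 30 calls in each library and no overlap, ranked by difference, 1 per 1000 bp, up to 8 lower and 4 higher. Named copies were the 8 largest called differences without overlap between the libraries and the 4 deepest copies. The 3 deepest with an unadjusted p of 0.5 or more and copies in genes with the most calls (6 called, 3 not called) were also named. Of these, 2 sites and 2 copies are not reported here. The members and lists were chosen with earlier results of these data known. Alternatives were other coverage minimums, tools and site sets, each library left out and the replicate number as a block.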

Additional observations from a re-analysis of the deposited data

Results flagged for a closer look

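Among 80 groups of 4 libraries examined for a library far from the others, 2 passed Dixon's 95% critical value, where chance gives about 1 in 20 groups. Both were H730A replicate 4: at position 8 it held 6.83% where the other H730A libraries held 7.66 to 7.80%, and at position 34 it held 5.31% where the others held 6.11 to 6.22%. It was the lowest H730A library at 14 of the 15 positions. The gap between the highest and lowest wild-type class differed between the mutants by -2.36 points (exact two-sided permutation test p = 0.0286, n = 4). The sites outside the tested set held 7.90% methylation in H730A, above the 4.69 to 4.86% of the knockout libraries.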

How the results depend on the processing

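The direction of the level difference held in all 17 alternatives, from -2.43 to -1.67 points with each library left out. It passed the exact permutation test (p = 0.0286) without F46A replicate 4, without the 10 deepest copies (-2.13 points) and with unweighted site means (-2.33 points). Site counts depended on the setting. The 216 lower and 1 higher sites became 2 and 0 with limma on logit levels, 136 and 0 without the 10 deepest copies, 432 and 5 with at least 100 calls, 687 and 7 in 1 fit of all 16 libraries, 706 and 4 with at least 30 calls and 1363 and 30 by Fisher's exact test, which ignores spread between libraries. With each library left out they ranged from 0 to 118 lower and stayed at 0 higher. The 207 lower copies became 112 with limma and 75 with at least 100 calls, where fewer copies were tested, and ranged from 95 to 310 with each library left out, with 0 to 2 higher copies.

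No pairing by replicate number was seen over copies. Deviations of same-numbered libraries correlated by -0.0551 to 0.0264, and 0 of 4 F46A libraries correlated best with their own number. A batch shared by same-numbered libraries that acts on the overall level was not tested. With a replicate block the model called 0 sites lower and 0 higher (1214 and 26 at an unadjusted p under 0.05) and 34 copies lower, and the class gap of -2.36 points had p = 0.125 in the exact paired permutation test, the smallest p that 4 pairs allow, so this test could not pass. The level difference of -2.06 points had p = 0.25 in the exact paired permutation test. A block for counts of positions was not run.

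With libraries left out the sign changed at position 53 (-0.662 to 0.400 points), 90 (-0.0803 to 1.69) and 110 (-0.294 to 0.893) and for the strands (-0.0316 to 0.0559). The coverage contrast of 0.941 points ranged from 0.806 to 1.02 and reversed to -0.189 with at least 30 calls; the cause was not tested. Its adjusted p was 0.0476 by the exact permutation test without F46A replicate 2 or 4. The other ranges were 0.174 to 0.241 for genes, -0.157 to -0.0771 for the X chromosome, 0.425 to 0.495 for amplicon units, -2.55 to -2.18 for the class gap, 7 to 10 for positions without overlap and 6 to 11 for relative levels without overlap. The median tested site had 62 calls per library, which limits the precision of single sites.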
